A study of Mus musculus with 20 samples.

Results

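Motile cilia genes were measured by polyA RNA-seq in 20 libraries of eWAT, the white fat that lies along the epididymis of mice. The genes were chosen by name: symbols that start with Cfap (cilia and flagella associated proteins), Dnah (axonemal dynein heavy chains), Dnaaf (dynein assembly factors), Rsph (radial spoke proteins) or Tekt (tektins) followed by a digit, with a summed count of at least 100 over all libraries. Of 55401 genes in the table, 64 had such a name and 60 reached that sum: 31 Cfap, 15 Dnah, 7 Rsph, 4 Dnaaf and 3 Tekt genes. Just inside the limit were Cfap97d1 with 101 counts, Dnah2os with 113 and Rsph14 with 171. Just outside were Dnah7a with 84, Tekt5 with 72, Tekt3 with 55 and Rsph6a with 49. All but 1 of the 60 code for proteins; Dnah2os is an RNA antisense to Dnah2.

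The study compared 10 libraries of mice on a Control diet with 10 of mice under Random Food Restriction, a regime of fasting periods together with a 5% cut in calories. A further label marks each library Yes or No for "spermatozyte contamination", read here as spermatocyte, a germ cell in meiosis. It reads Yes for 7 control libraries (1, 2, 4, 5, 8, 9 and 10) and 3 restricted libraries (1 to 3), and No for 3 control (3, 6 and 7) and 7 restricted libraries (4 to 10). How that label was set is not given in the sources used here, so a test by the label is not independent evidence if the label was read from these same libraries. Strain, age and whether each library was a separate animal are not given either, so p-values measure the spread between these libraries, which may be technical in part. The extraction text names QUAD where the tissue label says eWAT, but Adipoq, the adipocyte hormone adiponectin, stood at 3213 to 5325 CPM in every library, CPM being counts scaled to a common library total.

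A motile cilium and a sperm flagellum share the same core, the axoneme, a ring of doublet microtubules around a central pair. Dynein arms fixed to the doublets drive the beat, radial spokes pass signals from the central pair to the arms, and tektins and other microtubule inner proteins stiffen the doublets. In the adult these genes are known from multiciliated epithelia such as airway, oviduct, ependyma and the efferent ducts between testis and epididymis, and from developing sperm; mature adipocytes carry no motile cilia. The transcription factor Foxj1 switches the programme on in multiciliated cells together with RFX factors, which bind the X-box of ciliary promoters.

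Promoter sequences are shown for 5 members to let the X-box core be seen beside the expression values. RefSeq promoter windows (GRCm38.p6, 250 bases before to 50 after each start) were found for 29 of the 37 members higher in libraries marked Yes and 11 of the 13 tested members not called by the label. The 250 bases before the start are printed 5' to 3' on the gene's strand, and capitals mark GTTGCC, a short core of the X-box, or its reverse complement.

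Tekt1 (chr11:72361883-72362132, minus strand): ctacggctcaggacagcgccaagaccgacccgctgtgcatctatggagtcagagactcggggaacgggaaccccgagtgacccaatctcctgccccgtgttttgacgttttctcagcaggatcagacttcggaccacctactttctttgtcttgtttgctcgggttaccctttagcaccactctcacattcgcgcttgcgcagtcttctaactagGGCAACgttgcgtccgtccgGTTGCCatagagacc

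Cfap97d2 (chr8:13705639-13705888, plus strand): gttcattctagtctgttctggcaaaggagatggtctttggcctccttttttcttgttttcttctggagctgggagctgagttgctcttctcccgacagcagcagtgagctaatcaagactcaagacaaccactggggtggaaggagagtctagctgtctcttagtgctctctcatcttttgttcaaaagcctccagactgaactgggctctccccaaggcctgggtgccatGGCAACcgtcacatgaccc

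Cfap300 (chr9:8042876-8043125, minus strand): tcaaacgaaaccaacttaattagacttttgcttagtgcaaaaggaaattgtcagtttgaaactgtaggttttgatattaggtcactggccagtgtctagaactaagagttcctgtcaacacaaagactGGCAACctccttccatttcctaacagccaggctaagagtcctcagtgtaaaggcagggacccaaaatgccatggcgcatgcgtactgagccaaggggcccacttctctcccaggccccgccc

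Tekt2 (chr4:126325689-126325938, minus strand): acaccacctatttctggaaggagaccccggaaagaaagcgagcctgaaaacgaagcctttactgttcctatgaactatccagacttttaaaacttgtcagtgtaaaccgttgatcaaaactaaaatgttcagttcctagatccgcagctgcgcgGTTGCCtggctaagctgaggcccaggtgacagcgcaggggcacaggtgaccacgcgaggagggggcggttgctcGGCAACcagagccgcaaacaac

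Dnah11 (chr12:118199044-118199293, minus strand): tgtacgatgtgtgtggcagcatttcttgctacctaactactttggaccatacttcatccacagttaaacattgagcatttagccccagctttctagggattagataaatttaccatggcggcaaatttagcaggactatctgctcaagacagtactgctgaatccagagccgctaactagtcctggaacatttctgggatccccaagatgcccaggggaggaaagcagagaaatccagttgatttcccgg

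The core began 35 and 15 bases before the printed start in Tekt1, 19 in Cfap97d2, 122 in Cfap300, and 96 and 22 in Tekt2. No core stood in the 250 bases of Dnah11. Tekt1 and Tekt2 have other starts as well, and for each gene another start had no core in its window. The printed promoters are those of 4 members that were higher in libraries marked Yes (Tekt1, Cfap97d2, Cfap300 and Dnah11) and of 1, Tekt2, that was not called. They do not reflect how often the core occurs, which is given next. Over whole windows, on either strand, GTTGCC was in 12 of 33 promoters (some genes have several starts) of members higher in Yes (36.4%), in 7 of 13 of members not called (53.8%) and in 12.5% of all 32851 promoters. The longer form GTTGCCATG, which contains the short core, was in 4 of 33 (12.1%), in 0 of 13 and in 0.773% of all promoters. The forkhead core TGTTTAC, the class of motif that Foxj1 binds, was in 1 of 33, 2 of 13 and 3.65% of all. The cyclic AMP response element TGACGTCA, bound by Crem in spermatids, was in 1 of 33, 0 of 13 and 1.79% of all. No test was made of these shares.

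Motile cilia genes parted the libraries by the contamination label. Of the 60 members, 50 passed the filter on low counts and were tested; 37 were higher in libraries marked Yes, 0 were lower and 13 were not called. Over all 15986 genes tested, 5.04% were higher and 0.269% lower in Yes. The median log2 fold change (Yes against No, in a model with diet) was 2.21 over the 50 members and −0.0073 over all genes. For 25 members the lowest of the 10 Yes libraries lay above the highest of the 10 No libraries, a pattern that 2.04% of all genes had. In bulk tissue, more cells of a type and more RNA per cell cannot be told apart.

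The filter let 16 of the 50 members through with fewer than 5 No libraries above its level of 0.437 CPM. A gene that passes through 1 group had to differ. The filter asked for 10 libraries above that level, and 6 of the 16 had no No library above it. Among these 6 were Rsph4a, Tekt4, Cfap57, Cfap206 and Cfap161. The filter set their Yes libraries above their No libraries in advance, so a lack of overlap is no result for them. Of the 34 tested members outside the 16, 21 were higher in Yes. Libraries held 14306528 to 44061508 counts, and a count of 0 allows up to 3 counts, which is 0.0699 to 0.207 CPM depending on the library; such limits and all SDs near 0 cover few reads. Within control libraries alone 32 members and 2.79% of all genes were higher in Yes, and within restricted libraries alone 35 members and 3.98%.

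**Figure D1:**
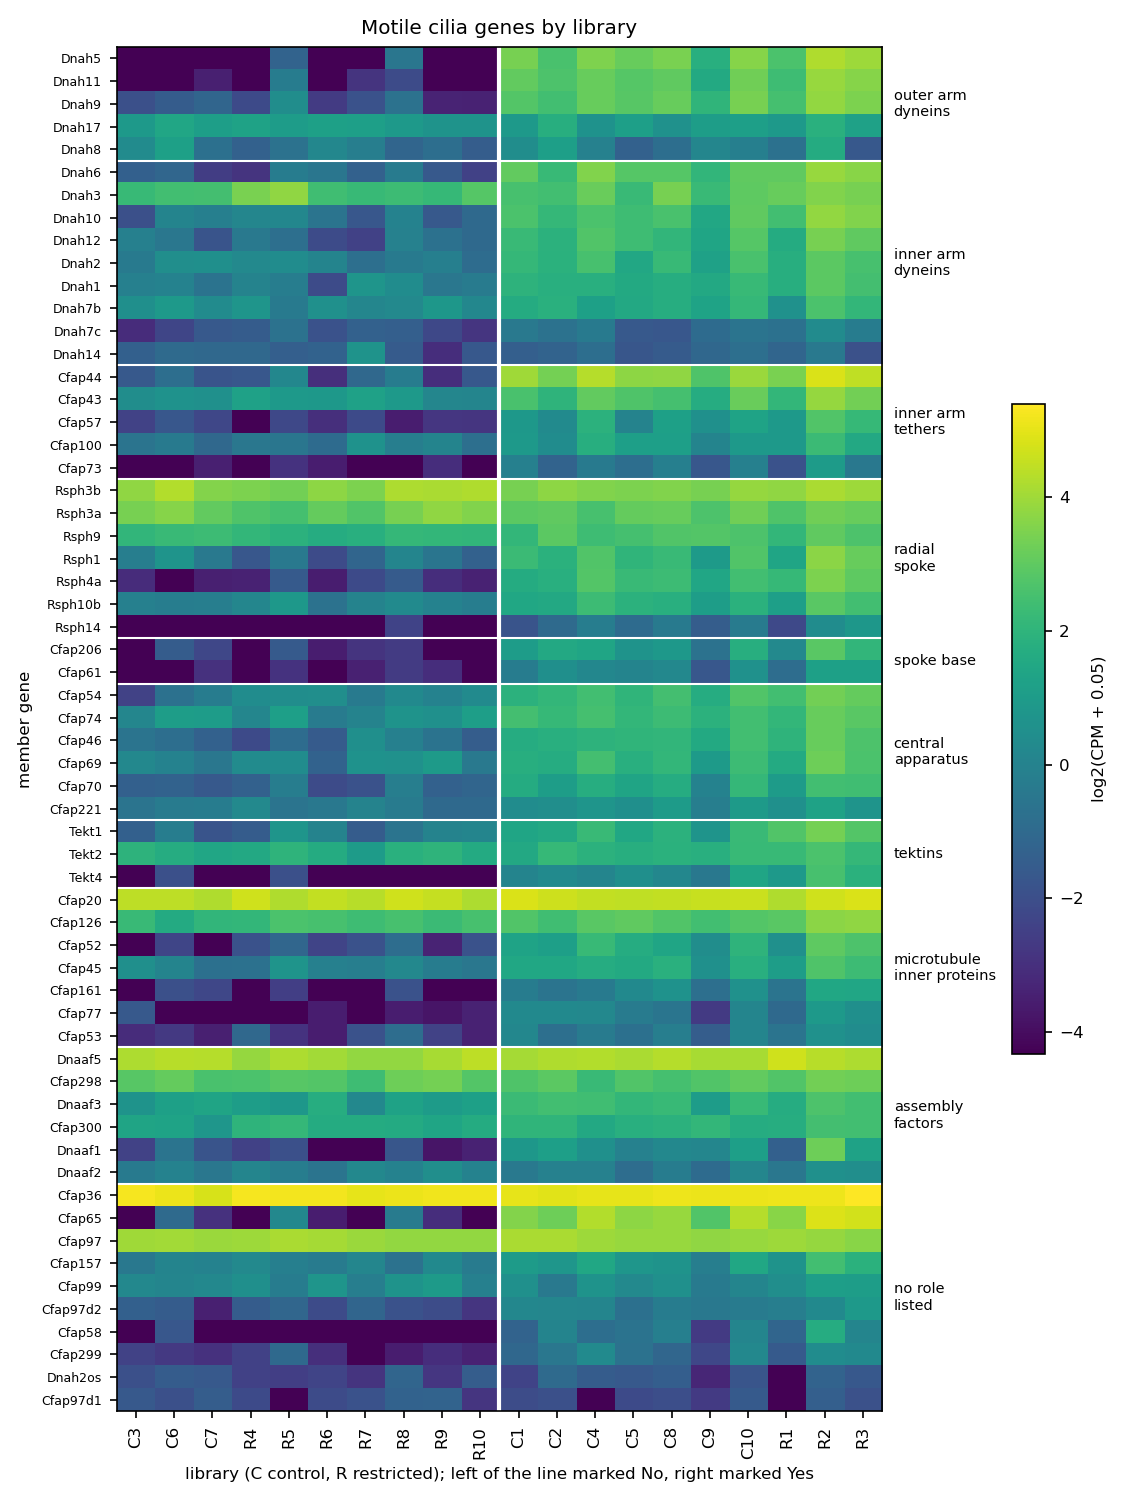
Level of each of the 60 members (rows, grouped by role) in each library (columns) as log2(CPM + 0.05), libraries marked No left of the white line and Yes right of it. Rows of most dyneins, of the tethers and of the central apparatus change at the line, while Dnah3, Dnah8, Dnah14, Dnah17, Cfap20, Cfap36, Cfap97, Dnaaf5 and Rsph3b keep a similar shade across it.

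Of the 5 outer arm dynein heavy chains, the motors that set beat frequency, Dnah5, Dnah9 and Dnah11 were higher in Yes and Dnah8 and Dnah17 were not called. Dnah5 (chr15:28203752-28472052 on GRCm38, a motor gene often mutated in primary ciliary dyskinesia) ranged from 3.43 to 18.9 CPM in Yes, median 10.7, and was at 0 in 8 of the 10 No libraries. The other two No libraries, Restricted 5 and Restricted 8, had 0.372 and 0.657 CPM. The groups did not overlap, and the log2 fold change was 6.88 ± 0.56 (SE, adjusted p = 8.85e-09), the largest among the tested members. Dnah11, its partner in the proximal cilium, went from 2.90 to 14.6 CPM in Yes, median 8.18, against 0 to 0.784 in No with 6 libraries at 0 (log2 fold change 6.51 ± 0.54 SE, adjusted p = 1.05e-08). Dnah9, which takes that place further along the cilium, had 4.06 to 13.8 CPM in Yes, median 7.99, and 0.0449 to 1.32 in No (log2 fold change 4.74 ± 0.41 SE, adjusted p = 1.77e-08). All 3 were thus near or at 0 in most No libraries and present in each Yes library.

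Dnah8 and Dnah17 are the outer arm heavy chains known from sperm. Dnah8 had 0.266 to 3.07 CPM in Yes and 0.314 to 2.21 in No (log2 fold change 0.39 ± 0.43 SE, adjusted p = 0.788). Its estimate turned to −0.42 without Restricted 2, the library with its highest value. Dnah17 had 1.46 to 3.54 CPM in Yes and 1.53 to 2.63 in No (log2 fold change 0.16 ± 0.18 SE, adjusted p = 0.780). For both genes the range of the No libraries lay within that of the Yes libraries. Per kilobase of the deposited gene length, the mean level in Yes was 0.664 ± 0.297 CPM for Dnah5, 0.572 ± 0.233 for Dnah11, 0.514 ± 0.185 for Dnah9, 0.138 ± 0.0431 for Dnah17 and 0.0414 ± 0.0331 for Dnah8 (SD, n = 10 libraries each). In No the levels were 0.125 ± 0.0216 CPM per kilobase for Dnah17, 0.0301 ± 0.0217 for Dnah8, 0.0214 ± 0.0239 for Dnah9, 0.00757 ± 0.0169 for Dnah11 and 0.00658 ± 0.0145 for Dnah5. Neighbours in these orders lay within their SDs of each other, apart from Dnah9 and Dnah17 in Yes, and Dnah17 and Dnah8 in both groups.

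Radial spoke head paralogues were read beside the dyneins, since Rsph4a is known from motile cilia and Rsph6a from sperm. Rsph4a (chr10:33905111-33916021 on GRCm38) had 2.64 to 11.1 CPM in Yes, median 4.90, and 0 to 0.292 in No (log2 fold change 6.01 ± 0.36 SE, adjusted p = 4.8e-10), the smallest p of any member. Rsph4a passed the filter through Yes libraries alone, so it had to differ and its p is not separate evidence. Rsph6a, with 49 counts in all, was at 0 in 8 of 10 No libraries and reached 1.09 CPM in Restricted 2. Summed per library, the airway and ependymal type genes Dnah5, Dnah9, Dnah11 and Rsph4a had 13.0 to 58.5 CPM in Yes and 0.0898 to 2.77 in No. The sperm type genes Dnah8, Dnah17 and Rsph6a had 2.04 to 7.70 CPM in Yes and 1.84 to 5.20 in No. The first sum thus separated the labels and the second did not.

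Paralogues were also set against each other within each library. The log2 ratio of Dnah8 to Dnah5 per kilobase (0.5 counts added to each) was −6.53 to −2.22 in Yes, median −4.27, and −1.46 to 5.67 in No, median 4.26. Dnah17 to Dnah9 gave −2.59 to −0.72 in Yes and 0.59 to 4.72 in No, and Dnah17 to Dnah11 gave −2.67 to −0.65 in Yes and 1.19 to 6.90 in No. In these 3 ratios every Yes library lay below every No library. The ratios restate the levels given above and are not separate evidence. Dnah5 was at 0 in most No libraries, so most of its No ratios rest on the added counts. Rsph6a to Rsph4a overlapped, with −8.03 to −2.31 in Yes and −3.54 to 4.46 in No. Here too the added counts weigh, since Rsph6a was at 0 in most No libraries.

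**Figure D2:**
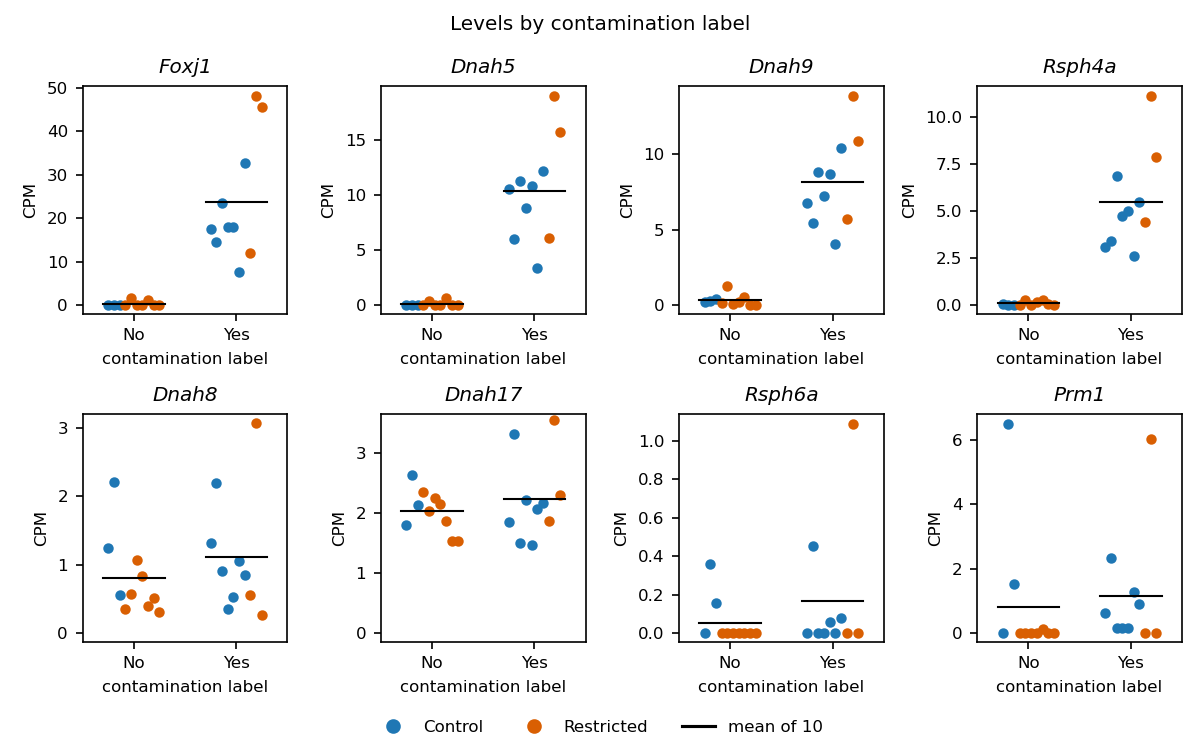
CPM per library (points, coloured by diet) by contamination label, with the mean of 10 libraries as a line, for Foxj1, the airway and ependymal type genes Dnah5, Dnah9 and Rsph4a, the sperm type genes Dnah8, Dnah17 and Rsph6a, and the spermatid gene Prm1. The upper genes separate the labels; the lower genes overlap, and Prm1 is highest in Control 6, a No library, at 6.49 CPM and in Restricted 2, a Yes library, at 6.04.

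Inner arm dynein heavy chains shape the waveform of the beat, and 6 of the 7 tested were higher in Yes. Dnah6 had 4.17 to 14.7 CPM in Yes, median 8.06, and 0.0881 to 0.785 in No (log2 fold change 4.72 ± 0.31 SE, adjusted p = 9.61e-10). Dnah10 had 2.80 to 14.1 CPM against 0.207 to 1.07 (log2 fold change 3.54), and Dnah12 had 2.53 to 10.5 against 0.132 to 0.913 (3.53). Dnah1, Dnah2 and Dnah7b followed with log2 fold changes of 2.41, 2.30 and 1.38. In 5 of these 6 genes the label groups did not overlap, the exception being Dnah7b, whose reads can be split with the near-identical copies Dnah7a and Dnah7c. Dnah3 was not called (7.91 ± 2.59 CPM in Yes, 6.65 ± 3.16 in No, SD, n = 10 each, adjusted p = 0.370). Its exons share 10.5% of their bases with Lyrm1 on the opposite strand, and without a stated strand setting the reads of both cannot be told apart. Dnah14 and Dnah7c were below the filter.

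Tethers and anchors hold inner arms to the doublets, and all 4 tested were higher in Yes. Cfap44, part of the tether of an inner arm motor head, had 6.49 to 28.8 CPM in Yes, median 14.4, and 0.0699 to 1.07 in No (log2 fold change 5.53 ± 0.35 SE, adjusted p = 9.61e-10). Its tether partner Cfap43 kept a higher floor, with 3.17 to 14.5 CPM in Yes and 1.03 to 2.29 in No (log2 fold change 2.32). Cfap57 had 0.976 to 6.75 CPM against 0 to 0.257 (log2 fold change 4.73), and Cfap100, an anchor of inner arms, 1.0 to 4.91 against 0.435 to 1.49 (1.87). Label groups did not overlap for the first 3 and overlapped for Cfap100. Its partner Cfap73 was below the filter, with 0.226 to 1.94 CPM in Yes and 0 to 0.0826 in No.

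Of the 6 tested radial spoke members, 4 were higher in Yes. Besides Rsph4a these were the head protein Rsph1 (1.90 to 12.8 CPM against 0.183 to 1.60, log2 fold change 3.12), Rsph10b (2.06 to 7.41 against 0.587 to 1.78, 2.13) and the head protein Rsph9. Rsph9 moved least, from 4.11 ± 0.537 in No to 6.11 ± 1.32 CPM in Yes (SD, n = 10 each, log2 fold change 0.54 ± 0.13 SE, adjusted p = 0.0118), with overlapping groups. The stalk genes Rsph3a and Rsph3b, near-identical copies that can share reads, were not called, at −0.26 on the log2 scale (adjusted p = 0.534) for Rsph3a and −0.10 (adjusted p = 0.821) for Rsph3b. Both had at least 5.70 CPM in every library. Cfap206, at the base of a spoke, had 0.581 to 7.41 CPM in Yes and 0 to 0.309 in No (log2 fold change 4.98).

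All 6 members of the central apparatus, the pair of single microtubules with its projections, were higher in Yes. Cfap46 had 2.90 to 8.64 CPM in Yes, median 3.95, and 0.176 to 1.36 in No (log2 fold change 3.24 ± 0.28 SE, adjusted p = 1.74e-08). Cfap54, a neighbour of Cfap46 in the same projection, had 3.17 to 9.91 CPM against 0.138 to 1.36 (log2 fold change 2.93 ± 0.21 SE, adjusted p = 2.91e-09). Cfap70, Cfap69, Cfap74 and Cfap221 had log2 fold changes of 3.15, 2.24, 1.89 and 1.17. The groups overlapped only for Cfap221 (0.845 to 2.36 CPM in Yes, 0.443 to 1.15 in No).

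Tektins are filament proteins inside the doublets. Tekt4 had 0.686 to 5.90 CPM in Yes, median 1.29, and was at 0 in 8 No libraries and at 0.206 in both others (log2 fold change 6.07 ± 0.59 SE, adjusted p = 9.73e-08). Tekt4 too passed the filter through Yes libraries alone and had to differ. Tekt1 had 1.58 to 10.3 CPM in Yes, median 4.20, and 0.237 to 1.61 in No (log2 fold change 3.08 ± 0.30 SE, adjusted p = 8.34e-08). Its groups overlapped at a single point, where Restricted 5, marked No, lay above Control 9, marked Yes. Tekt2 was not called, at 4.11 ± 0.947 CPM in Yes and 3.19 ± 0.631 in No (SD, n = 10 each, log2 fold change 0.45, adjusted p = 0.0978). Without Control 3 its adjusted p was 0.0379, past the threshold. It shares 20.8% of its exon bases with Gm12945 on the opposite strand.

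Of 6 tested microtubule inner proteins other than tektins, 5 were higher in Yes. The log2 fold changes were 4.66 for Cfap52, 4.32 for Cfap161, 2.66 for Cfap53, 1.98 for Cfap45 and 0.91 for Cfap126. Cfap52 had 1.32 to 7.79 CPM in Yes and 0 to 0.511 in No. Cfap126, known as Flattop, had a high level without the label too, with 2.99 to 6.15 CPM in No and 5.30 to 13.6 in Yes. Cfap20 was not called, at 24.1 ± 2.99 CPM in Yes and 21.6 ± 2.66 in No (SD, n = 10 each, adjusted p = 0.350). Cfap77 was below the filter, with 0.106 to 1.79 CPM in Yes and 0 to 0.276 in No.

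Assembly factors fold and load dynein arms in the cytoplasm, and 3 of 6 were higher in Yes. Dnaaf1 had 0.338 to 9.30 CPM in Yes, median 1.56, and 0 to 0.618 in No (log2 fold change 3.95 ± 0.61 SE, adjusted p = 7.47e-05), with Restricted 2 at 9.30 and the next library at 2.39. Dnaaf3 had 4.58 ± 1.23 CPM in Yes and 2.10 ± 0.592 in No (log2 fold change 1.15), and Cfap300 3.99 ± 0.910 and 2.98 ± 0.770 (0.63, SD, n = 10 each). Dnaaf2, Dnaaf5 and Cfap298 were not called, with log2 fold changes of 0.11, 0.13 and 0.05. Exons of Dnaaf2 share up to 75.6% of their bases with other genes, and those of Cfap298 up to 53.6%. Without a stated strand setting, the values of Dnaaf2 and Cfap298 may hold reads of those genes.

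Dnaaf2, Dnaaf5, Cfap298, Cfap20, Cfap36 and Cfap97 were listed as members with a known use outside motile cilia, and 0 of the 6 were called by the label. Over all genes tested 5.04% were higher in Yes, so 0 of 6 lay near that share. The median log2 fold change of these 6 was 0.08, and their summed level was 93.6 to 112 CPM in Yes and 88.2 to 102 in No. Cfap36, which binds a small GTPase of the primary cilium, had the highest level per kilobase of any member in Yes (12.5 CPM), at 34.4 ± 3.01 CPM in Yes and 35.2 ± 3.12 in No (SD, n = 10 each, adjusted p = 0.927). Cfap97 had 15.1 ± 1.57 and 15.5 ± 1.26 CPM, and Dnaaf5 19.0 ± 2.56 and 17.4 ± 2.69. The other 54 members summed to 125 to 427 CPM in Yes and 62.3 to 83.1 in No.

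Cfap65, a flagellar gene with no role on the list, had 6.76 to 29.2 CPM in Yes, median 14, and 0 to 1.12 in No with 4 libraries at 0 (log2 fold change 6.28 ± 0.49 SE, adjusted p = 5.15e-09). Cfap97d2 (log2 fold change 2.19) and Cfap157 (1.56) were higher too, and Cfap99 was not called (0.32, adjusted p = 0.590). The 10 members under the filter could not be tested; 8 had a higher mean in Yes, and Cfap61, Cfap73 and Rsph14 had label groups that did not overlap. Cfap58, another flagellar gene, had 0.106 to 3.16 CPM in Yes and was at 0 in 9 of 10 No libraries.

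**Figure D3:**
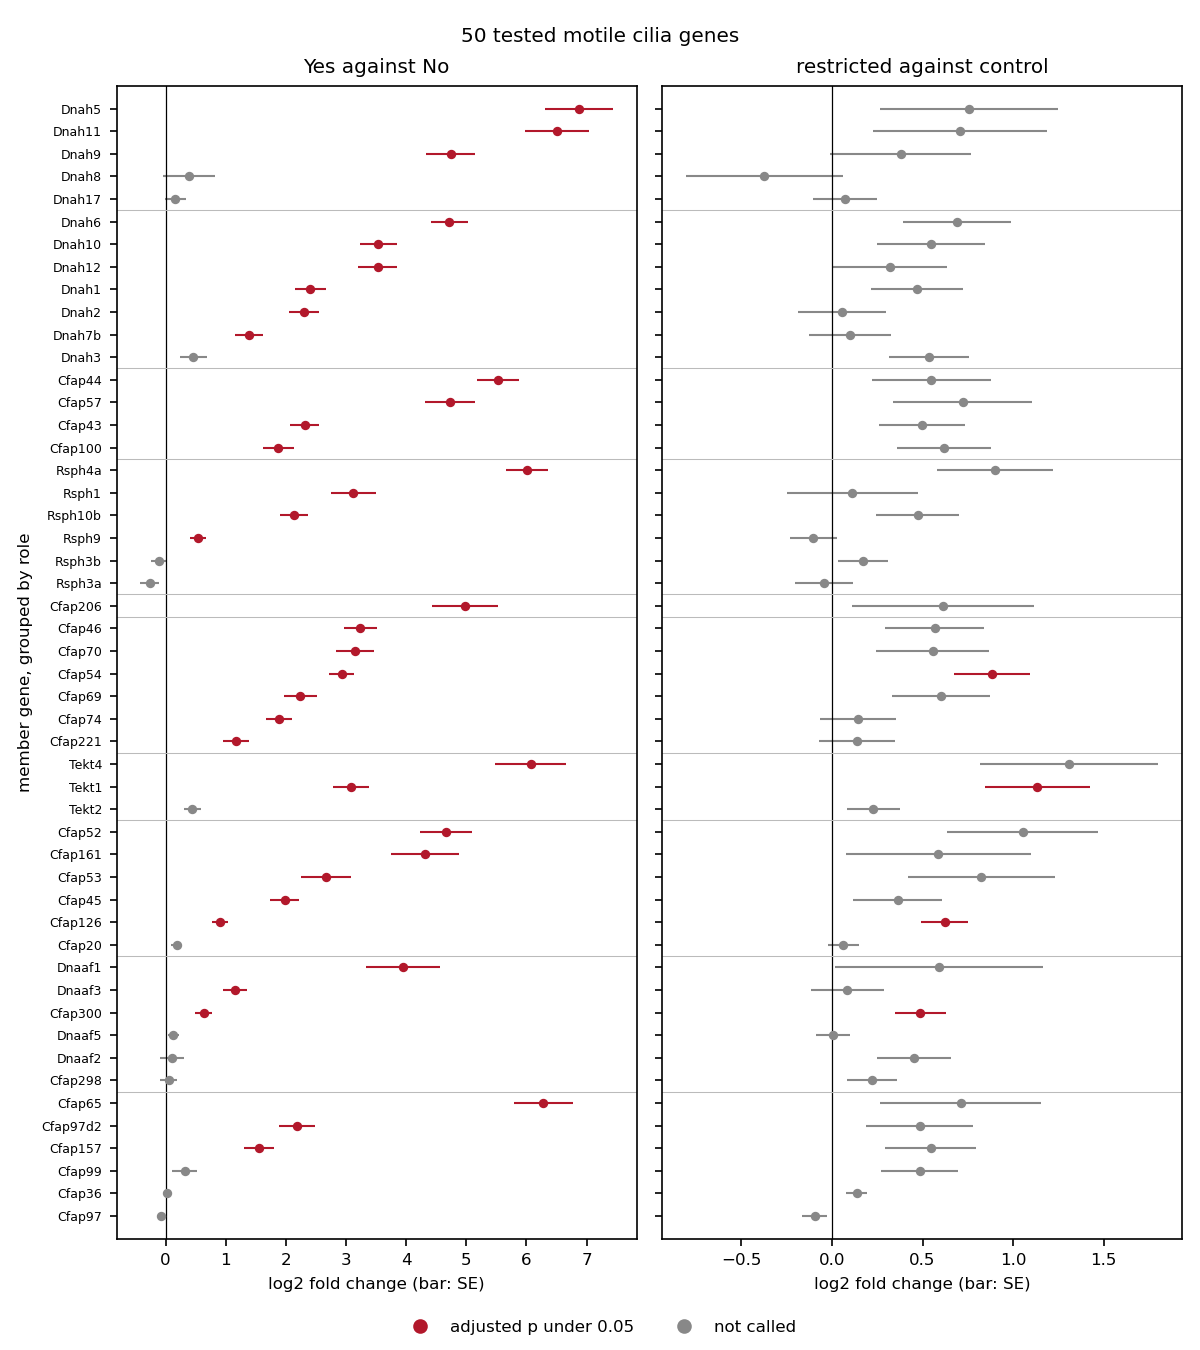
Log2 fold change with its SE for the 50 tested members, grouped by role, by contamination label (left) and by diet (right, on a finer scale), red where the adjusted p was under 0.05. By label 37 points are red, up to 6.88 for Dnah5; by diet 4 are red, between 0.49 and 1.13.

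Genes of the same structures outside the name rule moved with the members. Of 40 tested from a list of 50 further axoneme genes, 36 were higher in Yes and 0 lower, with a median log2 fold change of 2.47. Hydin, a giant protein of the central pair, had 2.48 to 14.9 CPM in Yes and 0.119 to 0.615 in No (log2 fold change 4.56 ± 0.29 SE, adjusted p = 9.61e-10). Tcte1, a subunit of the nexin link between doublets, had 0.787 to 3.87 CPM against 0 to 0.0826 (6.81), and Ccdc40, which sets the repeat of the arms, 2.11 to 10.8 against 0.132 to 0.840 (4.01). The not called were Gas8, Spef1, Spag1 and Ropn1l. As with the members, a gene that passed the filter through Yes libraries alone had to differ. Tcte1 was such a gene, below the filter level of 0.437 CPM in every No library. Intraflagellar transport, which also builds primary cilia, had 2 of 27 genes higher in Yes, Dync2h1 (0.32) and Ift22 (0.34), and 25 not called. That is near the 5.04% of all genes tested that were higher in Yes.

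Regulators of the programme were called in 5 of 12 tested cases, with the same limit from the filter. Foxj1 had 7.65 to 48.0 CPM in Yes, median 18, and 0 to 1.73 in No (log2 fold change 6.54 ± 0.55 SE, adjusted p = 1.24e-08). Among No libraries it was above 1 CPM in Restricted 5 (1.73) and Restricted 8 (1.20), and at most 0.158 in the other 8. Trp73 (log2 fold change 4.49), Gmnc (4.03), Myb (2.46) and Ccno (1.77), which act upstream in multiciliated cells, were higher in Yes as well. Mcidas, which acts with Gmnc, was at 0 to 0.451 CPM and not tested. Rfx2 (0.33, adjusted p = 0.290), Rfx3 (0.18, adjusted p = 0.600), Mybl1, a regulator of meiosis (0.08, adjusted p = 0.927), and Crem (−0.17, adjusted p = 0.342) were not called.

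Markers of other cell types were read in the same fit, and their part in the members' difference was not tested. Of 11 tested markers of multiciliated epithelium, 10 were higher in Yes (median log2 fold change 4.03), among them Ccdc153 with 6.49 to 29.4 CPM against 0 to 0.950 and Sntn with 0.686 to 3.73 against 0 to 0.124. The limit of the filter holds here too, since Sntn passed it through Yes libraries alone. The markers' sum over 16 genes was 92.7 to 216 CPM in Yes and 54.9 to 84.8 in No. Much of it came from Tppp3, which was not called and stood at 52.6 CPM or more in each library.

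The sum of markers of spermatocytes, the cell that the label was read to name, overlapped between the labels. Of 23 spermatocyte markers 7 could be tested, and 0 were called in either direction (median log2 fold change −0.10). Over all genes tested 5.04% were higher in Yes, so 0 of 7 lay near that share. Summed counts were under 100 for 11 of the 23, so the list could show little. The sums were 22.9 to 65.0 CPM in Yes and 21.5 to 32.3 in No. The synaptonemal complex gene Sycp3 had 1.31 to 12.6 CPM in Yes and 2.45 to 6.20 in No (adjusted p = 0.982), while Sycp1 and Hormad1 had 3 counts each over all 20 libraries. Of 6 tested round spermatid genes 0 were called, again near the share over all genes. Acrv1, an acrosome gene, was at 1.09 CPM in Restricted 2 and at most 0.207 elsewhere. Of 5 tested elongating spermatid genes 2 were higher in Yes, Hook1 (1.36) and Spata18 (4.34), of which Spata18 is also on the list of axoneme genes. Protamine transcripts, the defining message of late spermatids, followed single libraries. Prm2 was at 60.3 CPM in Restricted 2, 11.9 in Control 6 and 10.8 in Control 2, and at most 5.67 in the other 17. Without Control 6 and Restricted 2 together, a subset chosen after seeing the data, 35 members and 3.92% of all genes were higher in Yes.

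Of the epididymal, muscle and mesothelial markers, some were called by the label. Of 4 tested genes of epididymal duct epithelium Lcn2 (log2 fold change 3.06) and Cldn10 (1.09) were higher in Yes, and Lcn2 had 13.1 to 79.5 CPM in Yes and 2.82 to 9.38 in No. The sum over the list's 22 genes was 23.9 to 510 CPM in Yes, median 64.0, and 7.19 to 122 in No, median 13.5. Every No library apart from Control 6 lay below the lowest Yes library. Lcn2 is part of this sum, and 12 of the 22 genes had summed counts under 100. How far Lcn2 alone sets this order was not tested. Genes known from the duct itself were high in single libraries: Crisp1 was at 237 CPM in Control 1, a Yes library, 35.9 in Control 6, a No library, and at most 4.94 elsewhere. Lcn5, Lcn8 and Gpx5 were highest in Control 6. Skeletal muscle genes summed to 39.7 to 4283 CPM in Yes, median 527.3, and 26.1 to 1494 in No, median 57.99. Ttn and Neb were called higher in Yes (2 of 10), and the median log2 fold change was 2.63. High muscle sums were thus more common in Yes but did not match the label library by library. They were 992.6 CPM or more in Control 1 to 5, of which Control 3 is marked No, and in Restricted 1. In the other libraries, Yes or No, they were at most 127.5 CPM. In these 14 libraries with low muscle sums, 37 members and 4.98% of all genes were higher in Yes. Of 8 mesothelial genes Krt18 alone was called, as higher (log2 fold change 1.71), while the median over the 8 was −0.656. Of 10 adipocyte genes 0 were called, and of 5 tested Sertoli and Leydig genes 0, both near the 5.04% of all genes higher in Yes.

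**Figure D4:**
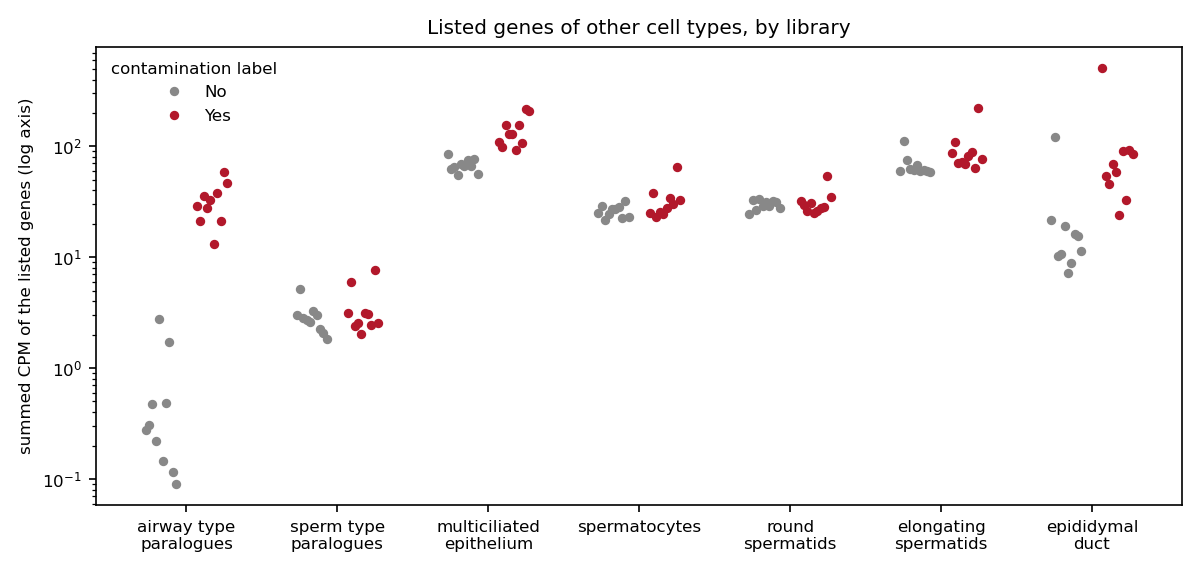
Summed CPM (log axis) of listed genes in each library, libraries marked No in grey and Yes in red, for airway and ependymal type paralogues, sperm type paralogues and 5 marker lists. Airway type sums of 13.0 to 58.5 CPM in Yes stand clear of 0.0898 to 2.77 in No, while sperm type, spermatocyte and spermatid sums overlap.

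Within each label the same libraries were high or low for most members. Among the 37 members higher in Yes, Restricted 2 was the highest Yes library for 35 and Restricted 3 for the other two, and Control 9 was the lowest for 30. Their summed level was 94.0 CPM in Control 9, 278 in Restricted 3 and 359 in Restricted 2, and the other Yes libraries lay between 136 and 210. Foxj1 followed the same ends, at 7.65 CPM in Control 9, 45.6 in Restricted 3 and 48.0 in Restricted 2. Among No libraries the sum was 43.8 CPM in Restricted 5 and 40.4 in Restricted 8, against 28.5 to 34.5 in the other 8, and either of this pair was the highest No library for 21 of the 37 members. Without Restricted 5 and 8 together, also chosen after seeing the data, 37 members and 4.65% of all genes were higher in Yes.

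By diet, 4 of the 50 tested members were higher in restricted libraries and 0 lower, with the label in the model; over all genes 6.31% were higher and 7.29% lower, so the members' share of 8% is near the background. The log2 fold change was above 0 for 46 of the 50 members and for 8301 of all 15986 genes. The median was 0.49 over the members and 0.0088 over all genes. Since the same libraries were high for most members, their signs are not separate evidence. Cfap126 had the smallest p. In libraries marked No it had 2.99, 4.19 and 4.69 CPM in the 3 control libraries and 4.23 to 6.15 in the 7 restricted ones. In libraries marked Yes it had 5.30 to 8.06 CPM in the 7 control libraries and 7.33, 12.8 and 13.6 in the 3 restricted ones (log2 fold change 0.62 ± 0.13 SE, adjusted p = 0.00323). Diets overlapped within both labels, and Restricted 2 and 3 lay above all control libraries.

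Cfap54 had 0.138, 0.566 and 0.790 CPM in the No control libraries and 0.747 to 1.36 in the No restricted ones. In Yes it had 3.17 to 6.65 CPM in control and 5.41, 8.56 and 9.91 in restricted libraries (log2 fold change 0.88 ± 0.21 SE, adjusted p = 0.00757), and the diets overlapped within both labels. Tekt1 had 0.237 to 0.824 CPM in No control and 0.307 to 1.61 in No restricted libraries. In Yes it had 1.58 to 4.77 CPM in control and 6.71, 6.91 and 10.3 in restricted libraries, without overlap (log2 fold change 1.13 ± 0.29 SE, adjusted p = 0.0131). Cfap300 had 1.66, 2.42 and 2.48 CPM in No control libraries and 2.59 to 4.38 in No restricted ones, again without overlap. In Yes it had 2.84 to 4.28 CPM in control and 3.27, 5.42 and 5.57 in restricted libraries (log2 fold change 0.49 ± 0.14 SE, adjusted p = 0.0272).

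Since 7 of 10 control but 3 of 10 restricted libraries are marked Yes, these values rest on the label term: without it 0 members were called, against 8.32% of all genes higher, and the median turned to −0.22. Within No libraries alone 0 members and 0.863% of all genes were higher, within Yes alone 1 and 0.601%, and with the RNA integrity number as a term 0 and 1.29%. Of the further axoneme genes 5 of 40 were higher by diet, and for Foxj1 the difference on the log2 scale was 1.01 (adjusted p = 0.184). Whether the diet difference itself depended on the label was tested by a product term, which called 0 members and 0 of all genes (edgeR). At an unadjusted p under 0.05 it had 4 of 50 members and 871 of 15986 genes, and DESeq2 and limma-voom called 0 members.

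**Figure D5:**
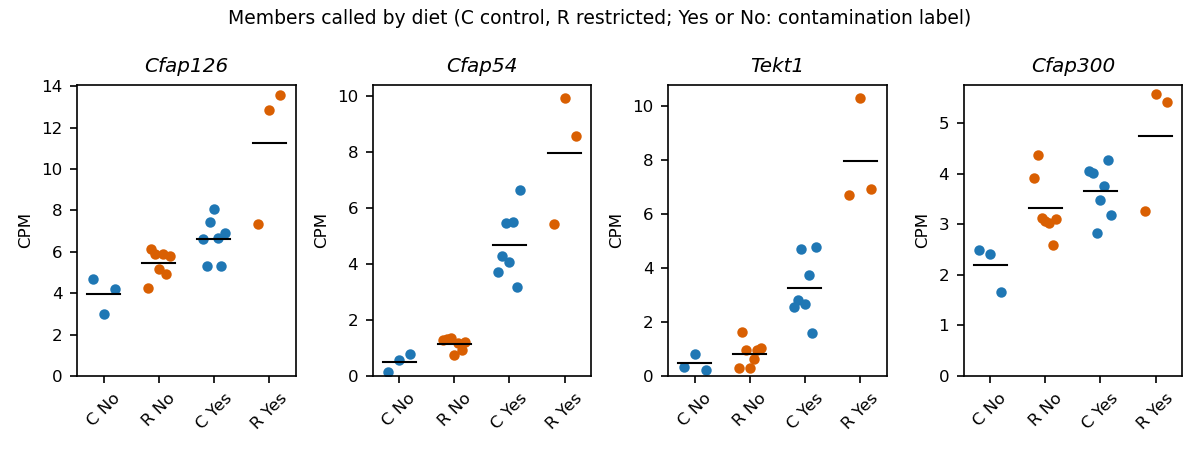
CPM per library (points) and group mean (line) of the 4 members called by diet, for control (C) and restricted (R) libraries marked No or Yes. By log2 fold change the step by label is larger than that by diet for all 4. It is 2.93 against 0.88 for Cfap54 and 3.08 against 1.13 for Tekt1. The steps are closer for Cfap126 (0.91 against 0.62) and Cfap300 (0.63 against 0.49). For Cfap126, Cfap54 and Cfap300, 2 of the 3 restricted Yes libraries stand highest.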

How the data were processed

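PolyA RNA of 20 eWAT libraries was read as 52-bp pairs, per the labels' protocols. GRCm38, Salmon, STAR and bcl2fastq 4.0.3 appear in the submitters' processing notes without a stated role. The authors deposited whole-number counts per gene, with a gene length, for 55401 genes; which tool counted, on which annotation and with which strand setting, is not given in the sources used here. Of the genes 99.53% had a symbol, taken by identifier from GENCODE vM21 and a gene name table. Genes renamed later fall outside the name rule. In vM21, 31 members share exon bases with another gene.

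The test was edgeR's (4.0.16, under R 4.3.3) with TMM factors, filterByExpr by diet with a minimum count of 10 (15986 genes), a quasi-likelihood fit with label and diet as terms, a second fit with their product, two-sided tests and Benjamini-Hochberg adjustment over all genes tested at 0.05. CPM values are counts over the tested total times the TMM factor. A ± is the SD over libraries unless SE is written. Library pairs of a diet differed beyond sampling noise (lowest chi-square of any pair 9.93 per degree of freedom). The biological coefficient of variation was 0.179, and at 14306528 counts or more per library genes near or below 1 CPM rest on few reads. The steps were tested on simulated data.

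The members, gene lists and tests were chosen with earlier results of these data known, and the 14 libraries with low muscle sums come from that earlier work. Named by rule were the 12 members with the smallest p higher in Yes and up to 6 lower, the 6 with the highest mean in Yes, the 8 most abundant not called, all called by diet, the paralogues and tektins, up to 4 genes of each list by p, and Foxj1, Rfx2, Rfx3, Mcidas, Ccno, Gmnc, Mybl1, Sycp3, Acrv1, Prm1, Adipoq, Lep and Ckm. Other genes complete a group; they were named with their values in view. By label, Lep differed by 0.0038 on the log2 scale (adjusted p = 0.997), and Ckm was below the filter, at 0 to 215 CPM in Yes and 0 to 127 in No.

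Alternatives were limma-voom (limma 3.58.1), DESeq2 1.42.0, upper-quartile or RLE scaling, other count filters, other model terms including a replicate block, and subsets of libraries with the same genes kept, each library left out in turn among them. The subsets without Control 6 and Restricted 2, without Restricted 5 and 8, and of the 17 libraries with an integrity number were chosen after seeing the data. Promoters are RefSeq windows; figures used Python 3.11.15 with matplotlib 3.10.9.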

Additional observations from a re-analysis of the deposited data

Results flagged for a closer look

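Single libraries stood apart from the rest of their diet and label group in 6 of 78 checks. Checked were the paralogues, tektins and other named members in groups of 7 libraries. A library was flagged where its gap to the nearest library was over 0.568 of the range. For normally spread values, chance flags about 1 in 20 such groups. Where the other 6 libraries are at 0, any count is flagged, as for Tekt4 in Restricted 5 and Rsph14 in Restricted 8. Restricted 5, marked No, had 0.784 CPM of Dnah11 against 0 to 0.183 in the other 6 restricted No libraries, 1.32 CPM of Dnah9 against 0.0449 to 0.584, and 0.206 CPM of Tekt4 against 0. Restricted 8, also marked No, had 0.146 CPM of Rsph14 against 0. Control 10, marked Yes, had 2.53 CPM of Tekt4 against 0.686 to 1.38 in the other 6 control Yes libraries. Control 2, marked Yes, had 3.31 CPM of Dnah17 against 1.45 to 2.20.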

How the results depend on the processing

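The 37 members higher by label were 36 to 38 with each library left out, 32 to 44 under all other settings but a minimum count of 50, which tests fewer genes and called 19 of 28 (9 of 13 further axoneme genes, against 36 of 40). The further axoneme genes by label ranged from 34 to 37 with a library left out. Replicate numbers do not pair the libraries: deviations of same-numbered libraries correlated at −0.096 to 0.093, and 1 of 10 correlated best with its own number. With the replicate block 33 members were higher by label, and by diet 2 members and 3 further axoneme genes. The 4 members by diet became 9 with limma-voom, 0 with the integrity number as a term (3 in the same 17 libraries without it), 0 without the label, 0 in No and 1 in Yes libraries alone, and 2 without Control 6 and Restricted 2, a choice added after seeing the data; they were 3 to 6 with each library left out. The 5 further axoneme genes by diet became 10 with DESeq2, 11 with limma-voom, 3 without a filter, 3 with a term for replicate numbers 1 to 5 against 6 to 10, 2 with the integrity number, 2 without the label, 1 (lower) in No and 1 in Yes libraries alone, and 3 without Control 6 and Restricted 2. They were 3 to 9 with each library left out, 3 without Restricted 2 and 9 without Restricted 1. The product term called 0 members under each setting. The cause of these changes was not tested. The sum limit gave 63 members at 50 counts and 56 at 200.

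Of 16 named members called by label, 566 of 573 values kept the call, 7 (all Cfap300) lost it and 0 changed sign. The call of Cfap300 by diet was lost without Control 7 (adjusted p = 0.0846), Restricted 2 (0.0632) or Restricted 3 (0.0644), and in 9 other settings; the value of Cfap54 by diet turned to −0.130 without the label. Sign changes otherwise touched members not called: Cfap36 by label (−0.021 with the integrity number, −0.033 without diet, −0.022 in control libraries, −0.037 in 17 libraries), Cfap298 by label (−0.003, −0.029, −0.123 and −0.035 in the same order, −0.104 with the block), Dnah8 by label (−0.308 with limma-voom, −0.225 with the block, −0.247 with the integrity number, −0.392 in control libraries, −0.086 without Control 6 and Restricted 2), Dnah17 (−0.083) and Dnaaf5 (−0.101) in control libraries, and Rsph3b (0.116) in restricted libraries. With each library left out, Rsph3b ranged from −0.180 to 0.023, Cfap36 from −0.025 to 0.071, Cfap298 from −0.023 to 0.132, Dnah8 from −0.420 to 0.791 and Dnah17 from −0.008 to 0.262. Depth limits members near 0 in No libraries, whose fold changes rest on few reads.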

Other observations

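Genes that carry a name of these families today are listed under older symbols in the table and so fall outside the name rule. Gm7173 (Cfap47, of the central apparatus) was below the filter, with 0.106 to 1.28 CPM in libraries marked Yes, median 0.528, and 0 to 0.396 in No, median 0.179. Dyx1c1 (Dnaaf4, a dynein assembly factor) had 49 counts in all, with 0 to 0.226 CPM in Yes and 0 to 0.206 in No, and Pih1d3 (Dnaaf6) had 0 counts. The gene 1810043G02Rik (Cfap410) was not called by label, at 28.5 to 38.8 CPM in Yes and 30.0 to 41.2 in No (log2 fold change 0.09, adjusted p = 0.613).

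Further axoneme genes outside these families included dynein chains and docking proteins. Dnaic1, an intermediate chain of outer dynein arms, had 0.620 to 2.88 CPM in libraries marked Yes and 0 to 0.483 in No (log2 fold change 3.88, adjusted p = 2.43e-06). Wdr63, an inner arm intermediate chain, had 0.792 to 5.67 CPM in Yes and 0 to 0.309 in No (5.29, adjusted p = 2.54e-08). Armc4, which docks outer arms, was below the filter, at 0.317 to 2.36 CPM in Yes and 0 to 0.110 in No. Of the 4 name-rule genes under the summed count of 100, Dnah7a had 0.113 to 0.755 CPM in Yes and 0 to 0.207 in No. Tekt5 had 0.0250 to 0.567 and 0 to 0.264, and Tekt3 had 0 to 0.850 and 0 to 0.198.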
